A study of Prunus persica with 24 samples.

Results

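The comparison described here sets peach (Prunus persica) flesh held at 35 °C for 2 days after harvest against flesh held at 25 °C for 3 days. The 2 groups hold 4 of the 24 libraries of the series, 2 libraries each. The pair was chosen from the measured values, because the profile of day 3 was the one at 25 °C that correlated best across genes with the profile of 35 °C day 2. Among 15420 genes tested, out of 26873 identifiers in the tables, 2073 were at least 2-fold apart between the 2 profiles. These 2073 genes are those that differed in a pair of columns set a day apart. The pairing does not show that the fruit were matched in storage age.

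All fruit had first been kept at 5 °C for 2 days and were then divided at random between 25 °C, the common condition, and 35 °C, the high temperature, per the labels. Flesh was sampled at both temperatures on days 1, 2, 3, 5, 6 and 7. Total RNA was depleted of ribosomal RNA before sequencing, so that RNA without a poly(A) tail could be counted as well. The values are FPKM (fragments per kilobase of transcript, scaled to the mapped fragments of a library), deposited by the authors as 1 column for each temperature and day, and a column stands for the 2 libraries of its group as 1 value. The difference of a gene between 35 °C day 2 and 25 °C day 3 thus rests on 2 numbers, for which neither an error nor a test can be given. Read depth is unknown, and so is how many fruit went into a library. The sums of FPKM were between 651850 and 882184 over the 12 columns. Before use each column was divided by a factor, the median ratio of widely detected genes to their geometric mean over the columns. Fold differences were taken from log2(FPKM + 1), a scale on which the change of low genes is understated.

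Peach is a climacteric fruit, in which a burst of the gaseous hormone ethylene after harvest accompanies softening of the flesh, the formation of aroma and the loss of green colour. Softening comes with enzymes that loosen and cut the pectin and hemicellulose of the cell wall. Storage above the usual range is known to disturb ripening in climacteric fruit and to induce heat shock proteins, which hold unfolding proteins in solution and help them refold. Such families could not be read in these data, because the tables pair the identifiers with no gene names or products and 0 of 26873 identifiers matched the RefSeq gene table. The labelled tissue could not be checked against marker genes for the same reason. Genes are described as groups, and the 2 highest and the 2 lowest by the rule for naming are given by identifier.

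Day 3 was the closest 25 °C profile to 35 °C day 2, but the match did not hold in the other direction. Across genes, 35 °C day 2 had a Pearson correlation of 0.930 with 25 °C day 3. Its correlation with the other 25 °C profiles was 0.888 for day 1, 0.899 for day 2, 0.919 for day 5, 0.898 for day 6 and 0.909 for day 7. These values chose the pair and are a description across 15420 genes, which share their columns and are not independent replicates. The distance in genes followed the same order at its lower end, with 2073 genes (13.4%) at least 2-fold apart from day 3. The count was 2756 (17.9%) from day 5, 2786 (18.1%) from day 7, 2894 (18.8%) from day 6, 3105 (20.1%) from day 1 and 3247 (21.1%) from day 2, and all these comparisons share the column of 35 °C day 2.

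Read from 25 °C day 3, the closest 35 °C profile was day 7, at a correlation of 0.948, followed by day 5 at 0.947, day 6 at 0.937 and day 3 at 0.933, and 35 °C day 2 came after these at 0.930. Only 35 °C day 1 lay further away, at 0.906. Genes at least 2-fold apart from 25 °C day 3 numbered 1541 (9.99%) for 35 °C day 5, 1598 (10.4%) for day 7 and 1774 (11.5%) for day 6. The counts were 2073 (13.4%) for 35 °C day 2, 2129 (13.8%) for day 3 and 2447 (15.9%) for day 1. The same 25 °C day was also the best match of 35 °C day 3, by 0.00256 over the next 25 °C day. For 35 °C day 2 this lead was 0.0117. The later 35 °C days were best matched by later 25 °C days, day 5 by day 7, day 6 by day 6 and day 7 by day 5, with leads between 0.0013 and 0.00354. The closest match of all was without a shift, as 35 °C day 1 had a correlation of 0.971 with 25 °C day 1. Its lead of 0.0359 was the widest of any 35 °C day, so a shift of a day was not a general feature of the profiles.

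**Figure D1:**
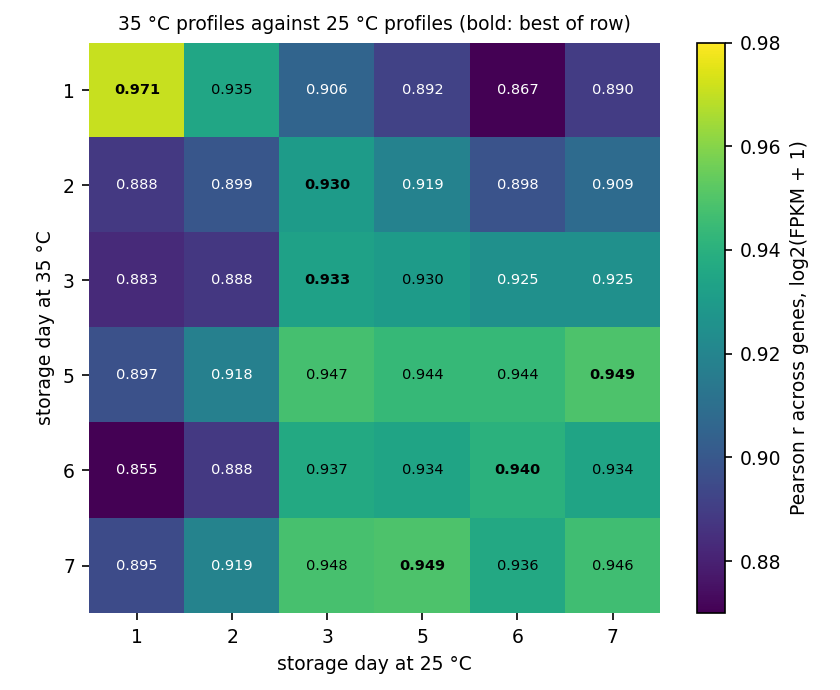
Pearson correlation across 15420 genes of each 35 °C profile (rows, storage day) with each 25 °C profile (columns, storage day), on log2(FPKM + 1). The cell in bold is the highest of its row; 35 °C day 2 peaks at 0.930 with 25 °C day 3, while 25 °C day 3 reaches 0.948 with 35 °C day 7.

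Higher genes outnumbered lower ones at 35 °C day 2. Of the 15420 tested genes, 13.4% were at least 2-fold apart, 1182 of them higher (7.67%) and 891 lower (5.78%) than at 25 °C day 3. The median gene lay at 0.04 on the log2 scale. Among the genes that were higher, the median difference was 1.37, with quartiles of 1.17 and 1.78, and among those that were lower it was -1.35, with quartiles of -1.75 and -1.13. At least 4-fold differences were found in 208 higher and 141 lower genes, at least 8-fold differences in 40 and 34, and at least 16-fold differences in 9 and 13. Just inside the threshold, 172 higher and 172 lower genes had differences between 1 and 1.1 in size, and just outside it 262 higher and 223 lower genes lay between 0.9 and 1. With no filter on low values the count was 2109 of 22174 identifiers, but genes below the filter could hardly reach the threshold on this scale. With a pseudocount of 0.1 in place of 1 the count was 3082 of 15420. The surplus of higher genes lay among low genes and depended on the filter, since 706 genes were higher and 743 lower among the 10203 with a mean of at least 5 FPKM.

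**Figure D2:**
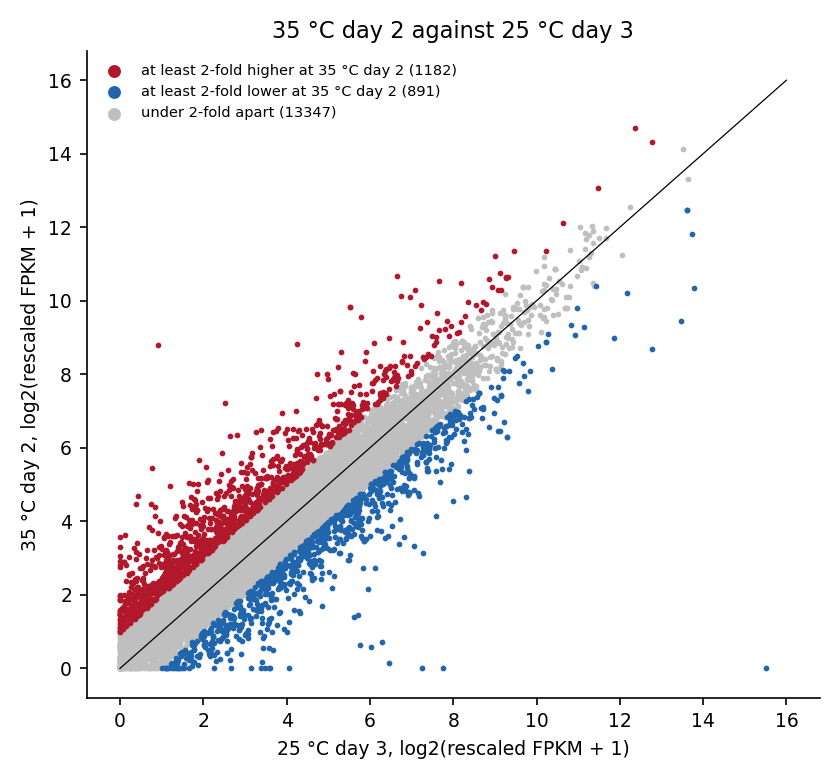
Level of each of 15420 genes at 35 °C day 2 (vertical axis) against 25 °C day 3 (horizontal axis), both as log2(rescaled FPKM + 1); the line marks equal levels. The 1182 higher genes spread above the line mostly at low and middle levels, and the 891 lower genes reach further among abundant ones. A horizontal value of 0 is a gene listed at 0 at 25 °C day 3, and a vertical value of 0 one listed at 0 at 35 °C day 2.

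The higher and lower genes were spread differently over abundance classes. In bulk flesh, fewer cells of a type and less RNA per cell cannot be told apart. Higher genes had a median of 14.1 FPKM at 35 °C day 2, against 3.84 FPKM at 25 °C day 3. Lower genes had a median of 9.80 FPKM at 35 °C day 2, against 29.5 FPKM at 25 °C day 3. By mean level over the 12 columns, 476 genes under 5 FPKM were higher and 148 lower, which is 9.12% and 2.84% of that class. In the class from 5 to 50 FPKM the counts were 519 higher and 432 lower. From 50 to 500 FPKM the order turned round, with 163 higher and 283 lower, or 7.37% and 12.8%. Of the 188 genes at 500 FPKM or more, 24 were higher and 28 lower. Genes that were higher summed to 20.9% of the FPKM of all tested genes at 35 °C day 2, against 5.74% at 25 °C day 3, and genes that were lower to 6.63% at 35 °C day 2, against 26.8% at 25 °C day 3.

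A single abundant identifier accounted for part of the last share. Prupe.4G009800, picked out for its values, was listed at 0 at 35 °C day 2, against 46674 FPKM at 25 °C day 3, where it ranked first and held 5.95% of the deposited FPKM. On the other days at 35 °C it stood at 9478 FPKM on day 1, 20059 FPKM on day 3, 26303 FPKM on day 5, 26787 FPKM on day 6 and 31057 FPKM on day 7. At 25 °C it lay between 13865 FPKM on day 1 and 51108 FPKM on day 5. The 0 stands alone among 12 columns, and an exact 0 in such tables can be a failed estimate, so no fold is given. In all, 26 lower genes were listed at 0 at 35 °C day 2 and 30 higher genes at 25 °C day 3. In 10 and 6 of the genes listed at 0 there, the other column held at least 5 FPKM. Without identifiers listed at 0 in any column the count of genes at least 2-fold apart was 1936, of which 1084 were higher and 852 lower.

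Most of the genes lay outside the range that 25 °C fruit covered at any sampled age. For each gene the level at 35 °C day 2 was set against the highest and the lowest of the 6 values at 25 °C. Of the 1182 higher genes, 953 stood above the highest 25 °C value and 229 (19.4%) within the range. Of the 891 lower genes, 682 stood below the lowest 25 °C value and 209 (23.5%) within the range. Among all 15420 tested genes 53.7% were within it. Because the members had been chosen for a distance from one of the 6 columns, this is a description of them and no test.

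Genes at least 2-fold beyond all 6 values at 25 °C numbered 342 above (2.22% of tested genes) and 198 below (1.28%). With a pseudocount of 0.1 in place of 1 they numbered 502 above and 316 below. The 342 had a median of 19.0 FPKM at 35 °C day 2, and of 13.5 FPKM on day 3, 7.05 FPKM on day 5, 9.75 FPKM on day 6 and 7.85 FPKM on day 7 at 35 °C. At 25 °C their medians were between 3.12 FPKM on day 6 and 5.42 FPKM on day 1, and 35 °C day 1, at 4.56 FPKM, was within that span. The 198 had a median of 10.4 FPKM at 35 °C day 2, and of 16.7 FPKM on day 3, 23.9 FPKM on day 5, 15.8 FPKM on day 6 and 22.9 FPKM on day 7 at 35 °C. Their medians at 25 °C were between 41.1 FPKM on day 5 and 68.6 FPKM on day 1, and 35 °C day 1, at 47.5 FPKM, again fell between these. The distance from the 25 °C levels was thus widest on day 2 in both groups, on the day by which they were chosen, and the medians of every later 35 °C day lay on the same side of all 25 °C medians.

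Genes within the 25 °C range could be placed by the 25 °C day whose level they were nearest to. Of the 229 higher genes in the range, 170 (74.2%) were nearest to day 1 or day 2 and 58 (25.3%) to day 5, 6 or 7. Of the 209 lower genes in the range, 98 (46.9%) were nearest to day 1 or 2 and 110 (52.6%) to a day after the third, among them 64 to day 7. The higher genes in the range were thus mostly nearest to a 25 °C level from before day 3. The lower genes were divided almost evenly between levels of earlier and later storage. Genes chosen for their distance from day 3 could hardly be nearest to it, and 1 gene in each set was. The split was not counted for all tested genes, so it describes the members and is no test.

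The values of day 1 show which temperature stood away from its own day 1. No column precedes the split between temperatures, and the step runs to day 2 at 35 °C but to day 3 at 25 °C. Higher genes had a median change of 1.05 on the log2 scale between day 1 and day 2 at 35 °C, and of -0.48 between day 1 and day 3 at 25 °C. Of these 1182 genes, 530 (44.8%) had an upward difference of at least 2-fold at 35 °C and one of less than 2-fold at 25 °C, against 8.20% of all tested genes. A further 242 (20.5%) had less than a 2-fold difference at 35 °C and a downward one of at least 2-fold at 25 °C, against 4.03% of all tested genes. In 64 genes (5.41%, against 0.480% of all tested genes) the 35 °C value was at least 2-fold up and the 25 °C value at least 2-fold down. Neither value differed that far from day 1 in 273 (23.1%, against 73.0%).

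Lower genes had a median change of -0.84 between day 1 and day 2 at 35 °C, and of 0.08 between day 1 and day 3 at 25 °C. A downward difference of at least 2-fold at 35 °C and one of less than 2-fold at 25 °C was found in 288 (32.3%, against 5.66% of all tested genes). Less than a 2-fold difference at 35 °C and an upward one of at least 2-fold at 25 °C was found in 140 (15.7%, against 1.69%), and 100 genes (11.2%, against 5.08%) were at least 2-fold down from day 1 at both temperatures. These counts use the 2 columns that chose the genes and describe their distance from day 1. A difference already present on day 1 does not show in them.

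On day 1 the higher genes were level and part of the lower genes was already low. Neither 35 °C day 1 nor 25 °C day 1 defined the genes, though the latter was among the profiles from which day 3 was picked. Between these columns higher genes had a median difference of -0.06, with quartiles of -0.28 and 0.22. Of these, 23 (1.95%) were at least 2-fold higher, against 0.733% of all tested genes, and as many, 23, were at least 2-fold lower, against 3.35%. Lower genes had a median difference of -0.21, with quartiles of -0.88 and 0.12, and 198 of them were at least 2-fold lower, which is 22.2%, against 3.35% of all tested genes.

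**Figure D3:**
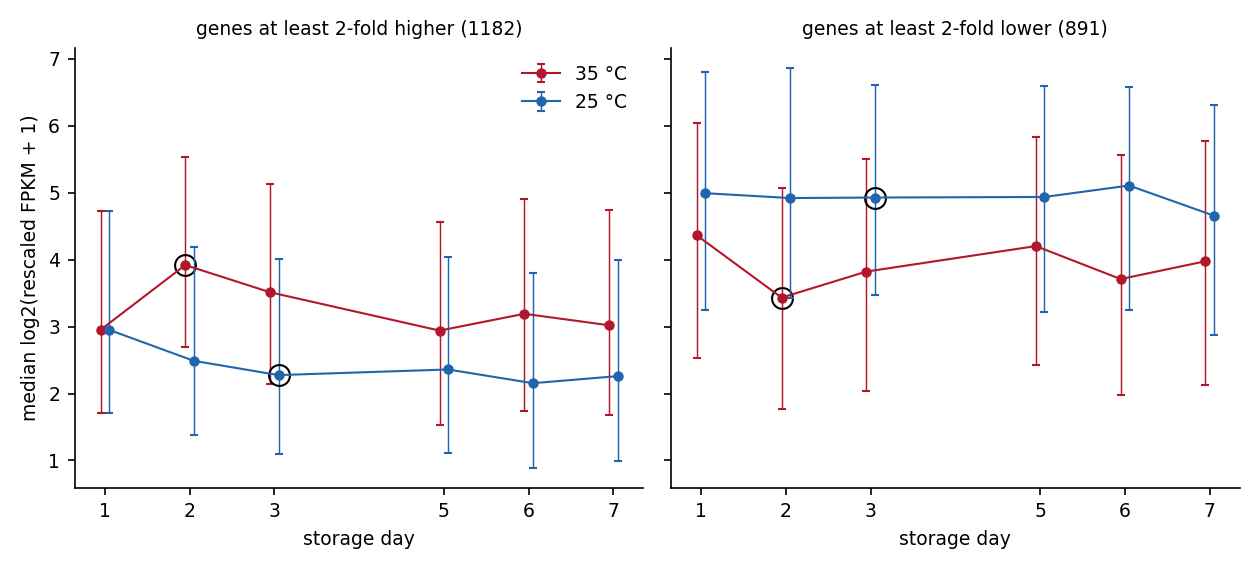
Median level of the 1182 higher and the 891 lower genes on each storage day at 35 °C (red) and 25 °C (blue), as log2(rescaled FPKM + 1); bars run from the lower to the upper quartile over genes, and black circles mark the 2 columns by which the genes were chosen. The median of the higher genes is level on day 1 and above at 35 °C on every later day, and that of the lower genes is below at 35 °C from day 1 on.

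Whether the differences lasted was read in columns that did not define the higher and lower genes. The 25 °C columns among them had entered the choice of the pair, as profiles less correlated with 35 °C day 2. The mean of 35 °C days 3, 5, 6 and 7 was compared with that of 25 °C days 5, 6 and 7 in limma, with days as the units, so that the error is the spread between days at one temperature and not between fruit. Only the 35 °C side holds a day 3, so the sides differ in storage age as well as in temperature. At a limma adjusted p under 0.05 over all 15420 genes there were 1803 calls, of which 959 were upward (6.22%) and 844 downward (5.47%) at 35 °C, and an unadjusted p under 0.05 was found for 4338 genes. The smallest adjusted p was 0.000115.

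Among the genes apart between 35 °C day 2 and 25 °C day 3, a larger share than of all tested genes was called, in the same direction. Of the 1182 higher genes 446 were called higher (37.7%, against 6.22% of all tested genes) and 0.254% were called lower. Of the 891 lower genes 313 were called lower (35.1%, against 5.47%) and 0 were called higher by limma, with 3 at an unadjusted p under 0.05. The median difference in the later columns was 0.75 for higher genes, with quartiles of 0.41 and 1.20, and -0.79 for lower genes, with quartiles of -1.25 and -0.40, while all tested genes had a median of 0.04. The mean difference was at least 2-fold upward in 406 higher genes (34.3%, against 3.95% of all tested genes) and at least 2-fold downward in 324 lower genes (36.4%, against 3.81%). A positive difference was found in 1091 higher genes (92.3%) and in 84 lower genes (9.43%), against 53.8% of all tested genes. Among genes under 2-fold apart between 35 °C day 2 and 25 °C day 3, 3.84% were called higher and 3.96% lower. Read from the other side, the higher genes made up 46.5% of the 959 calls upward and the lower genes 37.1% of the 844 calls downward, so that a large part of the calls in the later columns was of genes less than 2-fold apart in the shifted pair.

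The temperatures lie in separate tables, for which no common scaling is stated in the labels, so temperature and table cannot be told apart in any of these values. The numbers called depended on single columns and on pairing. Without 25 °C day 7 the calls were 715, without 35 °C day 3 they were 974, without 35 °C day 6 they were 1025, without 25 °C day 6 they were 1123 and without 35 °C day 7 they were 1135. Leaving out 35 °C day 3 makes the days of the sides equal. Then 24.8% of the higher genes were called higher, against 3.30% of all tested genes, and 22.8% of the lower genes lower, against 3.02%. Over the 7 columns left out in turn, 19.4% to 37.7% of the higher genes and 22.8% to 35.4% of the lower genes were called in their own direction, against 2.32% to 5.19% and 2.32% to 4.27% of all tested genes. With the shifted pairs as a term, 264 higher genes were called higher (22.3%, against 2.45% of all tested genes) and 178 lower genes lower (20.0%, against 2.06%), and with same-day pairs 215 (18.2%, against 2.06%) and 172 (19.3%, against 1.98%). With no filter on low values the counts were 262 (22.2%, against 3.17% of all genes then tested) and 199 (22.3%, against 2.67%).

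**Figure D4:**
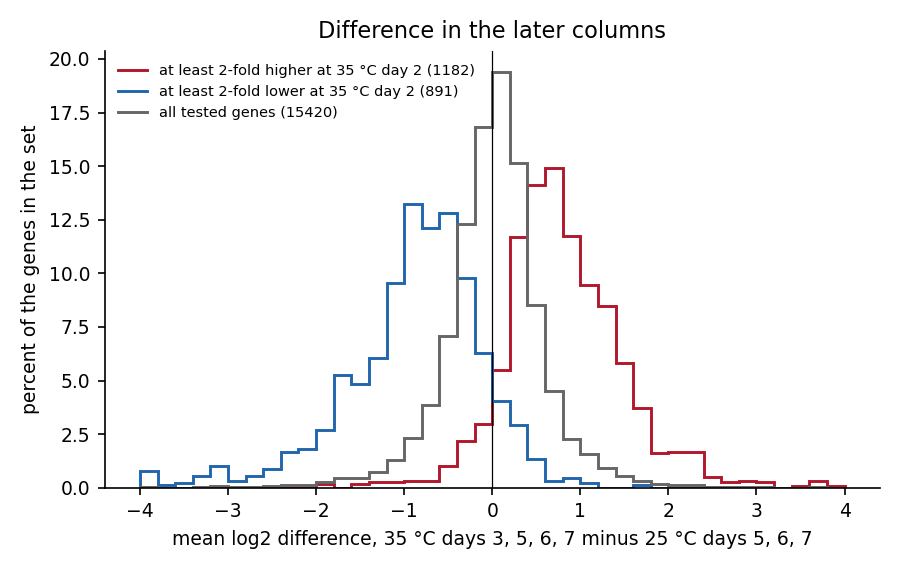
Distribution of the mean log2 difference between 35 °C days 3, 5, 6 and 7 and 25 °C days 5, 6 and 7 for the higher genes (red), the lower genes (blue) and all tested genes (grey), as percent of each set per bin of 0.2; values beyond 4 in size are in the end bins. The higher genes centre on 0.75 and the lower genes on -0.79, with all tested genes at 0.04.

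The share called in the later columns was also counted by the size of the gap between 35 °C day 2 and 25 °C day 3. Of the 208 genes at least 4-fold higher, 110 (52.9%) were called higher, and of the 40 at least 8-fold higher, 26 (65%). Of all tested genes 6.22% were called higher. Of the 141 genes at least 4-fold lower, 75 (53.2%) were called lower, and of the 34 at least 8-fold lower, 19 (55.9%). The share called lower was 5.47% over all tested genes. In the later columns the median difference was 1.30 for the genes chosen as at least 4-fold higher and -1.45 for those chosen as at least 4-fold lower.

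The share called was counted by the distance from day 1 as well, where 6.22% of all tested genes were called higher and 5.47% lower. Higher genes that were 2-fold up from day 1 at 35 °C alone were called higher in 230 of 530 cases (43.4%), and those that were 2-fold down at 25 °C alone in 70 of 242 (28.9%). Lower genes that were 2-fold down from day 1 at 35 °C alone were called lower in 119 of 288 cases (41.3%), with a median later difference of -0.81, and those that were 2-fold up at 25 °C alone in 76 of 140 (54.3%), with a median of -1.17. The 198 lower genes that were already 2-fold lower on day 1 were called lower in 14 cases (7.07%, against 5.47% of all tested genes), with a median of -0.47. No test of these differences between groups was made. By abundance, 29.6% of higher genes with a mean under 5 FPKM were called higher, against 7.94% of all genes of that class, and 44.2% of those from 50 to 500 FPKM, against 4.47%. Lower genes from 50 to 500 FPKM were called lower in 32.5%, against 10.9% of all genes of that class.

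The 1-sampling shift was then applied to the later days, in columns that did not define the higher and lower genes. Their 25 °C columns had been part of the choice of the pair. Between 35 °C day 3 and 25 °C day 5 the median difference was 1.00 for higher genes and -1.01 for lower genes. At least 2-fold differences in the same direction were found in 592 higher genes (50.1%, against 7.95% of all tested genes) and in 449 lower genes (50.4%, against 8.46%). Between 35 °C day 5 and 25 °C day 6 the medians were 0.60 and -0.72, and the shares were 28.3%, against 5.47%, and 39.8%, against 5.14%. Between 35 °C day 6 and 25 °C day 7 the medians were 0.78 and -0.78, and the shares were 36.0%, against 7.24%, and 41.6%, against 6.41%.

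Among these 3 later pairs the gap of both groups was widest with 35 °C day 3 and narrowest with 35 °C day 5. No flesh was sampled between days 3 and 5, so the pair with 35 °C day 3 has a wider age offset than the other pairs. On equal days the medians of the higher genes were 0.43 for day 5, 0.83 for day 6 and 0.70 for day 7. On day 5, 23.8% of them were at least 2-fold higher, against 5.95% of all tested genes, on day 6 39.8%, against 5.50%, and on day 7 33.5%, against 6.06%. The lower genes had medians of -0.68 for day 5, -1.06 for day 6 and -0.54 for day 7, and 35.5% were at least 2-fold lower on day 5, against 7.41% of all tested genes, 52.5% on day 6, against 5.78%, and 33.1% on day 7, against 4.75%. For the higher genes the smallest gap was that of 35 °C day 5 both at equal days and with the shift, in values that share this column. Before the chosen day, between 35 °C day 1 and 25 °C day 2, the medians were 0.34 and -0.60, with 22.6% of the higher genes at least 2-fold higher, against 6.14% of all tested genes, and 35.0% of the lower genes at least 2-fold lower, against 7.89%. This pair differs in age as well as in temperature. On equal day 1 the medians were -0.06 for higher and -0.21 for lower genes, and from day 1 to day 2 at 25 °C the median changes were -0.40 and 0.17.

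The spread between days was wider in these genes than in the rest, though no test of this was made. Over the later columns the median SD between days on the log2 scale was 0.38 at 35 °C and 0.30 at 25 °C for higher genes, and 0.40 at 35 °C and 0.43 at 25 °C for lower genes. For genes under 2-fold apart it was 0.22 at 35 °C and 0.25 at 25 °C. Neighbours in identifier order were counted as well. The next tested identifier was also higher for 194 of 1182 higher genes (16.4%, where 7.67% of all tested genes were higher), and also lower for 134 of 890 lower genes that had a next identifier (15.1%, where 5.78% were lower). Among these genes, 47 higher and 49 lower ones share every value with another identifier, which copies that draw on the same reads would do. Neighbours of that kind are 1 measurement, but the counts of neighbours above were not reduced for them. Identifiers with more than 1 row made up 16.6% of higher and 19.2% of lower genes, against 13.0% of all tested genes.

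The 2 lowest genes by the rule for naming were also low on every later day at 35 °C. Prupe.4G261900 was at 4.53 FPKM on day 1, 0.643 FPKM on day 2, 1.17 FPKM on day 3, 1.73 FPKM on day 5, 1.33 FPKM on day 6 and 1.18 FPKM on day 7 at 35 °C. At 25 °C it was at 11.5 FPKM on day 1, 97.8 FPKM on day 2, 76.8 FPKM on day 3, 30.3 FPKM on day 5, 46.1 FPKM on day 6 and 47.3 FPKM on day 7. The values at the temperatures did not overlap, and day 1 held the highest value at 35 °C and the lowest at 25 °C.

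The difference of Prupe.4G261900 between 35 °C day 2 and 25 °C day 3 was -5.56 on the log2 scale. In the later columns it averaged 1.35 ± 0.263 FPKM at 35 °C (SD, n = 4 days) and 41.2 ± 9.47 FPKM at 25 °C (SD, n = 3 days), a log2 difference of -4.14 ± 0.20 (SE). Its limma adjusted p of 0.000115 was the smallest of all tested genes. The rule for naming had used the 25 °C columns as a bound, so this p is not independent of the choice on that side. Earlier results of this gene were also known when the pair, the tests and the rule were chosen, so the p is no fresh test. Over 18 alternatives the adjusted p was between 5.18e-05 and 0.0196, and the log2 difference between -4.82 and -4.03.

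Prupe.4G150000 was at 18.3 FPKM on day 1, 0.486 FPKM on day 2, 0.623 FPKM on day 3, 1.79 FPKM on day 5, 0.143 FPKM on day 6 and 1.83 FPKM on day 7 at 35 °C. At 25 °C it was at 46.5 FPKM on day 1, 261 FPKM on day 2, 63.8 FPKM on day 3, 13.2 FPKM on day 5, 6.21 FPKM on day 6 and 4.82 FPKM on day 7. It was lower at 35 °C on each day, with its highest 25 °C value on day 2 and a lower one on each day after that, while the 35 °C values had no such order.

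Between 35 °C day 2 and 25 °C day 3 the log2 difference of Prupe.4G150000 was -5.45. In the later columns it averaged 1.10 ± 0.849 FPKM at 35 °C (SD, n = 4 days) and 8.09 ± 4.52 FPKM at 25 °C (SD, n = 3 days), a log2 difference of -2.11 ± 0.40 (SE, limma adjusted p = 0.0138). The call was lost with no filter on low values, at a limma adjusted p of 0.0530, and with 25 °C day 2 added, at 0.0656, in a range over the alternatives of 0.0115 to 0.0656. The 25 °C columns had bounded the choice of Prupe.4G150000 too, so its p is not independent on that side.

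The 2 highest genes had values that lay far apart from one sampling to the next at both temperatures. Prupe.1G161800, the sum of 2 rows, was at 1.05 FPKM on day 1, 442 FPKM on day 2, 20.6 FPKM on day 3, 0.928 FPKM on day 5, 582 FPKM on day 6 and 11.7 FPKM on day 7 at 35 °C. At 25 °C it was at 117 FPKM on day 1, 0.672 FPKM on day 2, 0.890 FPKM on day 3, 33.2 FPKM on day 5, 0.745 FPKM on day 6 and 0.616 FPKM on day 7. Days 2 and 6 were the highest at 35 °C and days 1 and 5 at 25 °C, and the ranges overlapped. The log2 difference between 35 °C day 2 and 25 °C day 3 was 7.87, and in the later columns it was 2.36 ± 1.79 (SE, limma adjusted p = 0.426), which did not pass. Its 0.890 FPKM at 25 °C day 3 is also the value of Prupe.1G162200 there, a gene at 0.789 FPKM at 35 °C day 2. The 2 rows of Prupe.1G161800 were not read apart. Whether either of them is listed at 0 at 25 °C day 3 is thus not known, and the size of this fold is uncertain.

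Prupe.1G453500 was at 4.04 FPKM on day 1, 42.7 FPKM on day 2, 110 FPKM on day 3, 4.19 FPKM on day 5, 53.1 FPKM on day 6 and 1.19 FPKM on day 7 at 35 °C. At 25 °C it was at 6.30 FPKM on day 1, 2.44 FPKM on day 2, 0.691 FPKM on day 3, 15.1 FPKM on day 5, 0.641 FPKM on day 6 and 8.50 FPKM on day 7. Days 2, 3 and 6 were the high days at 35 °C and the low days at 25 °C, and days 1, 5 and 7 showed the reverse order. The log2 difference between 35 °C day 2 and 25 °C day 3 was 4.69, and in the later columns it was 1.36 ± 1.36 (SE, limma adjusted p = 0.555). With shifted pairs as a term the later difference was 2.32 at a limma adjusted p of 0.0148, the lowest in a range of 0.0148 to 0.892 over the alternatives.

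**Figure D5:**
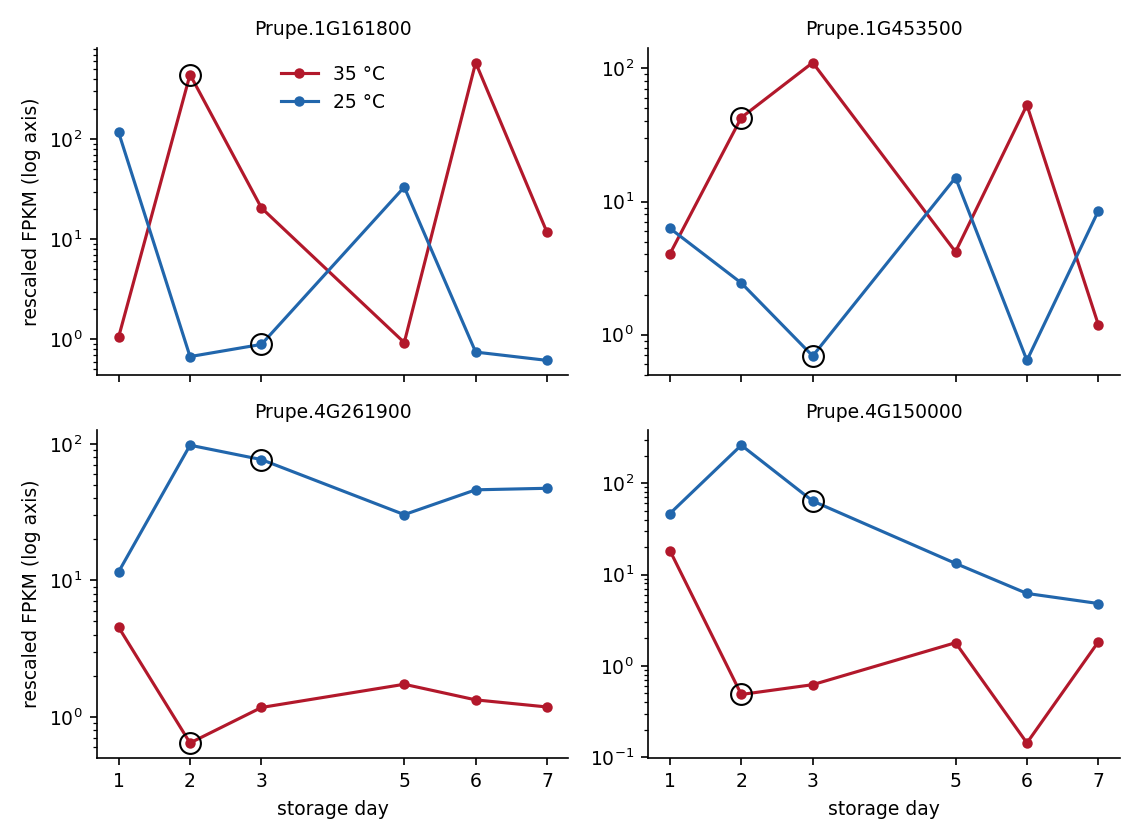
FPKM (log axis) of the 2 highest genes (upper row) and the 2 lowest genes (lower row) on each storage day at 35 °C (red) and 25 °C (blue); each point is 1 deposited value for 2 libraries, and black circles mark 35 °C day 2 and 25 °C day 3. The upper genes swing between days at both temperatures, and the lower genes stay below 2 FPKM at 35 °C from day 2 on.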

How the data were processed

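RNA-seq of peach flesh covered 24 libraries in 12 groups. The authors deposited FPKM in 2 tables of 6 columns, 1 column for the 2 libraries of a group. Cufflinks 2.1.1, TopHat2 2.0.10, Bowtie2 2.1.0, FastQC 0.10.1 and SAMtools 0.1.18 stand in the submitters' processing notes, without roles. Genome build, annotation, reads per column and the way libraries were combined: not given in the sources used here. Rows were summed per identifier (29300 rows, 26873 identifiers). The 12 columns were divided by median-of-ratios factors (0.922 to 1.06), computed from 12194 identifiers that exceeded 1 FPKM throughout. A gene entered if 2 or more columns reached 1 rescaled FPKM, which 15420 did, 600 of them sharing all values with another. Differences of at least 1 in log2(FPKM + 1) were counted, without a test. For the later columns a two-sided limma test was used (version 3.58.1, R 4.3.3, moderated with a trend on the mean), with Benjamini-Hochberg adjustment across the 15420 genes. The test was checked on simulated data with independent noise in each column, which does not cover storage days that drift in order or sides that differ in age. Its p-values reflect day-to-day spread, since no values of single fruit or libraries exist in the tables used.

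Named genes were at least 2-fold apart, outside the 25 °C range, above 0 in both columns and at 5 FPKM or more in the higher one, and the 2 highest and 2 lowest of 1359 such genes were taken. The pair of columns, the tests and the rule were chosen with earlier results of these data known, among them those of Prupe.4G261900. Lists of gene families by product description matched 0 identifiers and were not used.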

Additional observations from a re-analysis of the deposited data

How the results depend on the processing

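No paired analysis was possible because a column stands for both libraries of its group, so that replicate numbers could neither pair samples nor be left out; the pairs below are pairs of days. The 2073 genes at least 2-fold apart became 3247 with 25 °C day 2 in place of day 3 (1458 higher and 1789 lower), and stayed within 1.5 times under the other 10 alternatives, between 1449 and 3082. Day 3 remained the best match of 35 °C day 2 in each of the 8 alternatives of scaling, filter, pseudocount and row treatment. The 540 genes at least 2-fold outside the 25 °C range became 818 with a pseudocount of 0.1 (502 above and 316 below), with 399 to 621 otherwise. The 1803 calls in the later columns became 696 with shifted pairs as a term, 623 with same-day pairs and 715 to 1459 when 1 column was left out, and 1249 to 1950 otherwise. Restricting them to genes with a mean of 5 FPKM or more turned the balance to 557 higher and 692 lower. The causes were not tested. The 4 named genes had the same sign in every alternative that gave them a value. What read depth limits cannot be said, as it is unknown.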
